A study of Mus musculus with 15 samples.

Results

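The mitochondrially encoded transcripts were the genes of the deposited table whose symbol begins with mt-, which gave 37 of the 54495 genes listed. They were 13 mRNAs, 2 rRNAs and 22 tRNAs by the table's own biotype. Polyadenylated RNA was sequenced from mouse embryonic fibroblasts (MEFs), primary connective tissue cells taken from embryos at day 13.5 and grown in DMEM with 10% serum under 5% CO2 and 3% O2. Every group lacked mTR, which serves as the template RNA of telomerase, and also Wrn, a helicase whose loss causes Werner syndrome in people. TM cells had the genotype mTR-/-Wrn-/-p53N236S/N236S, and DM cells had the genotype mTR-/-Wrn-/-p53WT. G1, G3 and G5 are generations of breeding without telomerase. The libraries were 2 of G1TM and 2 of G1DM, 3 of G3TM and 2 of G3DM, and 3 of G5TM and 3 of G5DM. The labels do not say whether libraries of a group came from separate embryos, so the p-values below measure the spread between these 15 libraries, which may be technical in part. The sources name wild-type and p53S control MEFs, which were not analysed here.

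The mitochondrial genome encodes core subunits of respiratory complexes I, III and IV and of ATP synthase, together with the rRNAs and tRNAs that translate them. Both of its strands are copied as long precursors, and the tRNAs that lie between most of the other genes are cut out to free the mRNAs and rRNAs. Most mammalian mitochondrial mRNAs then carry a polyA tail, the rRNAs carry a very short one, and mature tRNAs end in CCA, so a library selected for polyA does not sample the 3 classes alike.

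Levels are given as FPKM, fragments per kilobase of gene length at a common library size, as the authors deposited them. Multiplying each value by gene length gave back whole reads, which totalled 17448588 to 29571111 per library. Differences are log2 differences of FPKM + 1 with their standard error (SE), from one limma model of the 6 groups, and a gene was called at a Benjamini-Hochberg adjusted p under 0.05 over the 13562 genes with at least 1 FPKM in at least 2 libraries. That filter passed 32 of the 37 members, namely 13 of 13 mRNAs, 2 of 2 rRNAs and 17 of 22 tRNAs. Wrn stayed at 0.0447 to 0.599 FPKM in all libraries, Terc (the gene of mTR) was listed at 0 in 14 of 15 and at 0.109 FPKM in the other, and Trp53, which both genotypes retain, measured 32.2 to 96.6 FPKM. In G3, 3 of 3 TM libraries and 0 of 2 DM libraries had Y-linked transcripts above 1 FPKM, so that sex and genotype cannot be told apart in that generation. In G5 this was 1 of 3 TM and 2 of 3 DM libraries, and in G1 0 of 2 TM and 1 of 2 DM libraries. Xist, a transcript of the inactive X chromosome, was above 1 FPKM in 1 of 2 G1DM, 2 of 3 G5TM and 1 of 3 G5DM libraries. These groups thus held libraries of both sexes, which cannot all be from a single embryo. Xist was above 1 FPKM in 2 of 2 G1TM, 2 of 2 G3DM and 0 of 3 G3TM libraries. Between G1TM and G3TM, sex and generation therefore cannot be told apart.

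The mRNAs and rRNAs moved in opposite directions in the later TM generations. In G3TM and G5TM the summed level of the 13 mRNAs was lower than in every other library, while both rRNAs, which had few reads elsewhere, were far higher. G1TM libraries did not show either pattern. The mRNA sum was 9854 and 10578 FPKM in G1TM, against 10197 and 11983 FPKM in G1DM. It was 4129, 2493 and 2633 FPKM in G3TM, against 11902 and 11971 FPKM in G3DM. It was 2981, 2940.3 and 2347 FPKM in G5TM, against 11473, 13448 and 12471 FPKM in G5DM. The 6 libraries of G3TM and G5TM lay below all 9 libraries of the other groups, and G3TM replicate 1 was the highest of the 6. The 13 mRNAs took 0.253% to 0.527% of the recovered reads in those 6 libraries and 1.35% to 1.85% in the other 9. Fewer cells of a type and less RNA per cell cannot be told apart in such bulk samples.

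**Figure D1:**
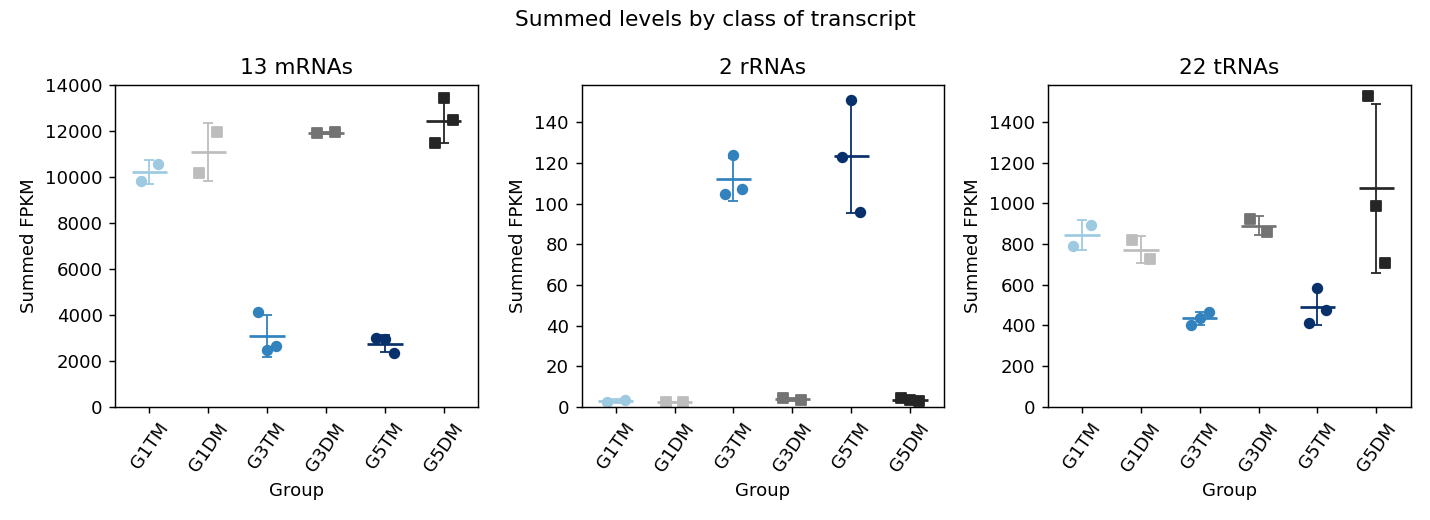
Summed FPKM of the 13 mRNAs, 2 rRNAs and 22 tRNAs (vertical axes from 0) in each group (horizontal axis), with 1 point per library and the mean with its SD as line and bar. The 6 libraries of G3TM and G5TM had mRNA sums of 2347 to 4129 FPKM and rRNA sums of 95.7 to 151 FPKM, against 9854 to 13448 FPKM and 2.20 to 4.30 FPKM in the other 9.

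The rRNAs come first along the genome. mt-Rnr1 (ENSMUSG00000064337, MT, 70 to 1024, plus strand) encodes the RNA of the small mitoribosomal subunit. It was at 0.517 and 0.740 FPKM in G1TM, against 0.714 and 0.630 FPKM in G1DM. In G3TM it was at 59.9, 57.0 and 49.2 FPKM, against 0.546 and 0.488 FPKM in G3DM. In G5TM it was at 60.0, 77.8 and 46.8 FPKM, against 1.16, 1.31 and 0.945 FPKM in G5DM. All 6 libraries of G3TM and G5TM were above the other 9, which held only 9 to 27 reads of mt-Rnr1 each, against 713 to 1506 reads in the 6.

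mt-Rnr2 (ENSMUSG00000064339, MT, 1094 to 2675, plus strand) encodes the RNA of the large subunit. It was at 1.72 and 2.85 FPKM in G1TM, against 1.48 and 1.71 FPKM in G1DM. In G3TM it was at 44.7, 67.4 and 58.0 FPKM, against 3.76 and 2.68 FPKM in G3DM. In G5TM it was at 62.6, 73.6 and 48.9 FPKM, against 2.98, 1.99 and 2.09 FPKM in G5DM. These groups did not overlap in G3 or in G5. The balance of the 2 rRNAs differed too, since the ratio of mt-Rnr1 to mt-Rnr2 per length was 0.846 to 1.34 in the 6 libraries of G3TM and G5TM and 0.145 to 0.658 in the other 9. Together the rRNAs equalled 2.53% to 5.15% of the mRNA sum in the 6 libraries and 0.0196% to 0.0362% in the 9. They remained a minor class in every library.

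Among the mRNAs, mt-Co1, the catalytic subunit of complex IV (cytochrome c oxidase), was the highest per length in every group. It was at 3873 and 4026 FPKM in G1TM, against 4066 and 4505 FPKM in G1DM. In G3TM it was at 1692, 1047 and 979 FPKM, against 4501 and 4876 FPKM in G3DM. In G5TM it was at 1002, 1179 and 839 FPKM, against 4916, 4874 and 4439 FPKM in G5DM. G3TM replicate 1 was again the highest of the 6 lower libraries and still far under all the others.

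The other well-covered mRNAs followed the same division of libraries. mt-Nd1, a membrane subunit of complex I, was at 912, 554 and 581 FPKM in G3TM, against 2423 and 2155 FPKM in G3DM. It was at 685, 639 and 519 FPKM in G5TM, against 1820.2, 2273 and 2092 FPKM in G5DM. mt-Cytb, the only mitochondrially encoded subunit of complex III, was at 565, 259 and 284 FPKM in G3TM, against 1548 and 1581 FPKM in G3DM. Neither gene's libraries overlapped between TM and DM in G3, and the same held for mt-Cytb in G5, with 409, 389 and 321 FPKM in G5TM, against 1274, 2055 and 1950.2 FPKM in G5DM. Over the 9 libraries outside G3TM and G5TM the medians ran in the order mt-Co1 (4501 FPKM), mt-Nd1 (2092), mt-Cytb (1548), mt-Nd2 (1174), mt-Nd5 (858), mt-Nd6 (598) and mt-Nd4 (579). In these 9 libraries mt-Co1 lay above mt-Nd1 throughout, and mt-Cytb above mt-Nd2, while every other pair of neighbours in this order had overlapping ranges. mt-Nd2, a complex I subunit, was at 291 to 412 FPKM in the 6 libraries of G3TM and G5TM and at 795 to 1256 FPKM in the 9, and mt-Nd4, also of complex I, at 83.6 to 175 FPKM and 462 to 663 FPKM.

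mt-Nd6 is the only protein gene on the minus strand (MT, 13552 to 14070) and encodes a complex I subunit. It was at 582 and 567 FPKM in G1TM, against 598 and 708 FPKM in G1DM. In G3TM it was at 144, 94.8 and 93.9 FPKM, against 511 and 511 FPKM in G3DM. In G5TM it was at 159, 119 and 95.7 FPKM, against 624, 818 and 778 FPKM in G5DM. All 6 libraries of G3TM and G5TM were below the other 9, so that the mRNA of the minus strand was low in the same libraries as mt-Co1 of the plus strand. mt-Nd6 shares 14 bases with mt-Nd5, and it faces long stretches of the opposite precursor. The sources used here do not state that reads were counted by strand, so sense and antisense reads over mt-Nd6 cannot be told apart. The ratio of mt-Nd6 to mt-Nd5 was 0.634 to 0.734 in 13 libraries, 1.24 in G5TM replicate 1 and 0.854 in G5TM replicate 2.

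mt-Nd5, another complex I subunit, was at 224, 129 and 141 FPKM in G3TM, against 749 and 740.0 FPKM in G3DM. It was at 128, 139 and 134 FPKM in G5TM, against 858, 1289 and 1185 FPKM in G5DM. Within DM, G3 had the lowest values of this gene, below the 857 and 1068 FPKM of G1DM. The G5 minus G3 difference within DM did not pass the test (0.55 ± 0.27 SE, limma adjusted p = 0.25).

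**Figure D2:**
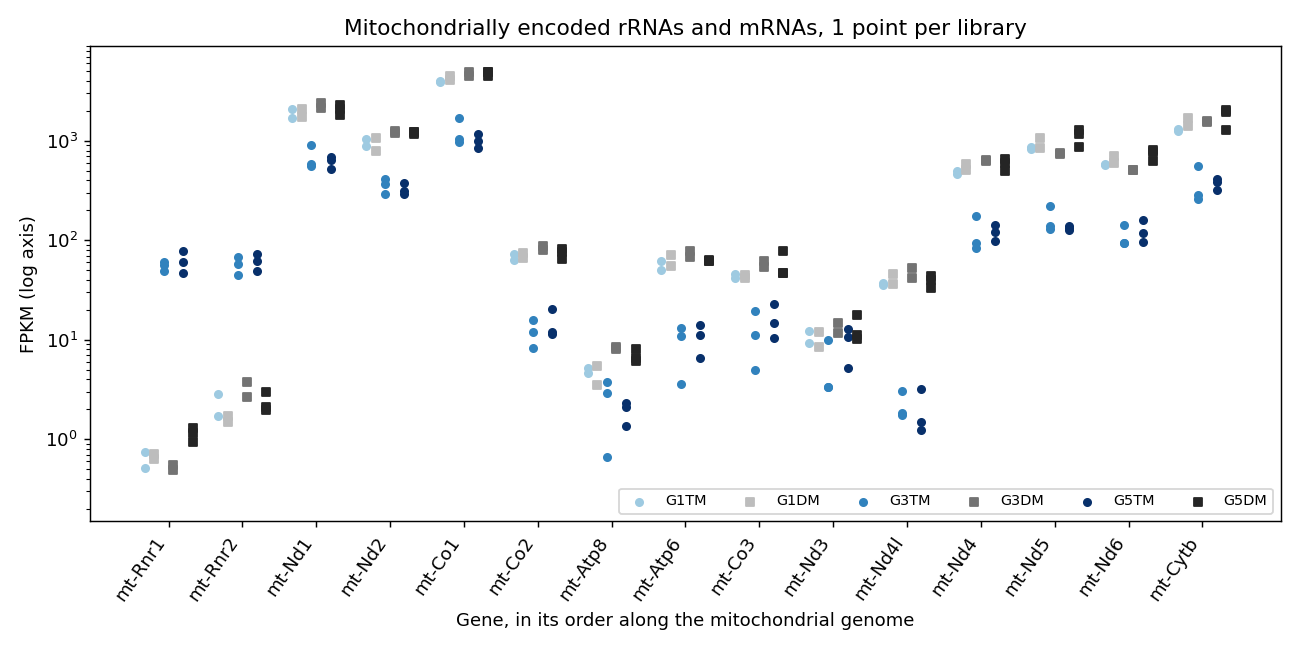
FPKM on a log axis of the 2 rRNAs and 13 mRNAs in their order along the mitochondrial genome, with 1 point per library, circles for TM and squares for DM. In mt-Rnr1 and mt-Rnr2 the G3TM and G5TM points lie at 44.7 to 77.8 FPKM, above all others, and in mt-Co1 they lie at 839 to 1692 FPKM, below all others.

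The remaining 6 mRNAs were listed at much lower levels, and 5 of them consist almost wholly of sequence that the nuclear genome repeats. A stretch of chromosome 1 (chr1:24611535-24616197, minus strand, GRCm38 coordinates as in the table) holds 7 annotated copies of neighbouring mitochondrial genes, from mt-Co1 to mt-Nd4. Of all windows of 100 bases, other annotated transcripts held 99.5% for mt-Co2 and mt-Atp6, 99.9% for mt-Co3, 98.5% for mt-Nd4l and 97.6% for mt-Nd3. The share was 60.8% for mt-Nd4, 30.8% for mt-Co1 and 3.19% for mt-Nd2. It was 0 for the other mRNAs and for both rRNAs. Only annotated transcripts were searched (GENCODE vM21), so sequence between them was not examined. The strand around mt-Atp8 is one such gap on chromosome 1.

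Gm28661, Gm10925, Gm28437, Gm10222 and Gm28439 matched mt-Co2, mt-Atp6, mt-Co3, mt-Nd4l and mt-Nd4 without a difference over their whole lengths of 681, 678, 783, 294 and 876 bases. Gm29216 differed from mt-Co1 at 6 of 492 bases, and Gm28438 from mt-Nd3 at 1 of 345. The windows below, from the GENCODE transcripts, hold all of these differences in capitals and show how little sequence tells gene and copy apart.
mt-Co1 (chrM:6381-6430, plus strand): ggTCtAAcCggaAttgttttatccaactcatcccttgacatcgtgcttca
Gm29216 (chr1:24616148-24616197, minus strand): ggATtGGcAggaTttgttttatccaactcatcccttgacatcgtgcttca
mt-Nd3 (chrM:9459-9508, plus strand): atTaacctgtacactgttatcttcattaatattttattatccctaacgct
Gm28438 (chr1:24613070-24613119, minus strand): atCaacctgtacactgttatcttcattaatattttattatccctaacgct

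The 5 genes with over 95% of their windows repeated had medians of at most 13.0 FPKM in the 6 libraries of G3TM and G5TM and of 11.6 to 74.2 FPKM in the other 9. mt-Co2 (complex IV) was at 8.34 to 20.6 FPKM in the 6 and 63.4 to 87.7 FPKM in the 9, mt-Atp6 (ATP synthase) at 3.59 to 14.2 and 50.7 to 77.4 FPKM, and mt-Co3 (complex IV) at 5.02 to 22.7 and 41.6 to 77.5 FPKM. In none of these 3 did the 2 sets overlap. mt-Nd1, mt-Nd2, mt-Nd5, mt-Nd6 and mt-Cytb, which are nearly or wholly unique, had medians of 598 to 2092 FPKM in the 9. mt-Atp8, which overlaps mt-Atp6 by 43 bases, was low as well (median 2.22 FPKM in the 6 and 6.11 FPKM in the 9). How reads that match both genomes were counted is not stated, so the levels of these genes and of their copies are uncertain.

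The nuclear copies, as listed, were lower in the same libraries. Gm10222, the copy of mt-Nd4l, was at 1.62 to 4.27 FPKM in the 6 libraries of G3TM and G5TM and at 108 to 185 FPKM in the other 9. Gm28439, the copy of mt-Nd4, was at 0.881 to 1.43 FPKM in the 6 and at 49.5 to 90.9 FPKM in the 9. The ratio of copy to gene was lower in the 6 as well, for example 0.462 to 0.957 against 1.83 to 2.71 for mt-Co2 and 0.00646 to 0.0171 against 0.105 to 0.152 for mt-Nd4. All 7 copies were called lower in TM in G3 and in G5, where 13.9% and 28.4% of all tested genes were called lower. Their median log2 difference was -4.69 in G3 and -4.20 in G5. The largest falls were those of Gm10222 (-5.50 ± 0.26 SE in G3 and -5.41 ± 0.23 in G5, limma adjusted p = 3.0e-08 and 7.5e-09).

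**Figure D3:**
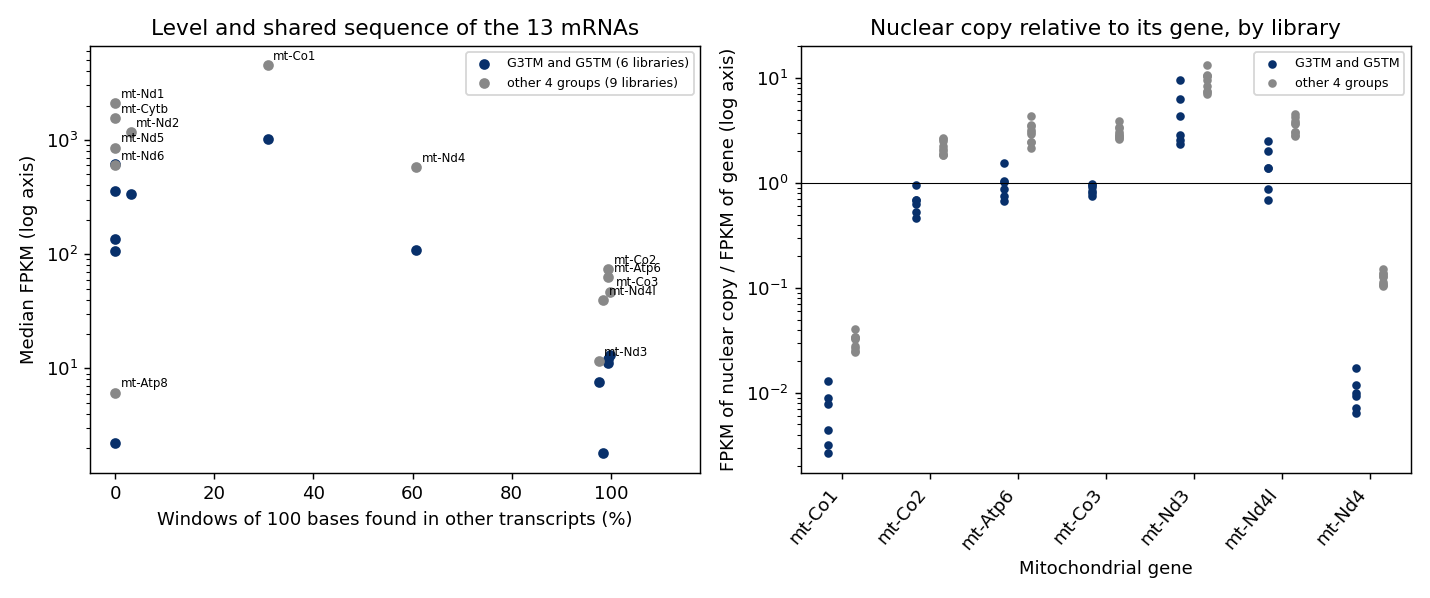
Left, median FPKM (log axis) of the 13 mRNAs against the percentage of their windows of 100 bases found in other annotated transcripts, for the 6 libraries of G3TM and G5TM and for the other 9. Right, FPKM of the nuclear copy divided by FPKM of its gene (log axis), 1 point per library. The 5 genes above 95% have medians of 11.6 to 74.2 FPKM in the 9 libraries, and for mt-Co2 the ratio is 0.462 to 0.957 in the 6 libraries and 1.83 to 2.71 in the 9.

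mt-Nd4l, a small complex I subunit, showed the widest gap of the mRNAs between the groups. It was at 3.07, 1.83 and 1.77 FPKM in G3TM, against 42.0 and 52.5 FPKM in G3DM. It was at 1.24, 1.48 and 3.21 FPKM in G5TM, against 33.0, 43.4 and 39.7 FPKM in G5DM. The 6 TM libraries held 6 to 24 reads of it each and the other 9 libraries 177 to 340. Its listed share of the mRNA sum was 0.0415% to 0.137% in the 6 and 0.288% to 0.438% in the 9. As listed, it was thus lower also relative to the mRNA sum. Other annotated transcripts held 98.5% of its windows of 100 bases, so its level, this share and the width of the gap are uncertain.

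As listed, mt-Nd3, a further complex I subunit whose sequence the nuclear genome also repeats, showed the narrowest gap. It was at 3.39, 3.32 and 10.0 FPKM in G3TM, against 14.7 and 11.6 FPKM in G3DM. It was at 13.0, 5.23 and 10.6 FPKM in G5TM, against 17.8, 10.1 and 11.1 FPKM in G5DM, and the libraries overlapped in G5. mt-Atp8, a small ATP synthase subunit, was at 3.73, 0.666 and 2.90 FPKM in G3TM, against 8.18 and 8.38 FPKM in G3DM. In G5 it was at 2.10, 1.35 and 2.33 FPKM in TM, against 8.15, 6.11 and 6.64 FPKM in DM. Of the 6 libraries of G3TM and G5TM, the highest in mt-Atp8 (3.73 FPKM) lay just above the lowest G1DM library (3.55 FPKM).

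The shares of complexes I, III and IV in the mRNA pool varied little beside its size. Complex I subunits made up 44.3% to 50.7% of the mRNA sum in the 6 libraries of G3TM and G5TM and 44.2% to 47.9% in the other 9. Complex IV subunits made up 35.1% to 42.5% in the 6 and 36.6% to 44.1% in the 9, and mt-Cytb 10.4% to 13.7% in the 6 and 11.1% to 15.6% in the 9. The ATP synthase subunits stood at 0.171% to 0.547% in the 6 and 0.502% to 0.736% in the 9, with medians of 0.418% and 0.616%. These values include the 2 genes affected by the nuclear copy or the overlap. Complexes I and IV also include genes with a nuclear copy. All 4 shares overlapped between the 2 sets of libraries. Single genes moved within them, since mt-Nd1 held 21.7% to 23.0% of the mRNA sum in the 6 and 15.9% to 20.4% in the 9, and mt-Nd5 4.31% to 5.72% in the 6 and 6.18% to 9.58% in the 9.

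TM against DM was tested within each generation, which compares groups that differ in p53 on the shared background. Other differences between the groups, such as sex in G3, are part of these comparisons. In G1, 0 of the 32 tested members were called by limma, where 1.17% of all tested genes were called (0.361% higher and 0.811% lower). limma voom on the recovered reads also called 0. At an unadjusted p under 0.05 there were 3 members, the tRNAs mt-Ti, mt-Tm and mt-Tt. The mRNAs ran from -0.27 to 0.12 with a median of -0.12, beside 0.02 over all genes. The difference was -0.04 ± 0.21 SE for mt-Rnr1 (adjusted p = 0.99) and 0.32 ± 0.26 for mt-Rnr2 (0.76). It was -0.12 ± 0.32 for mt-Co1 (0.97) and -0.18 ± 0.29 for mt-Nd6 (0.91).

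In G3, 13 of 13 mRNAs were called lower in TM and 2 of 2 rRNAs higher, where 32.0% of all tested genes were called (18.0% higher and 13.9% lower). The median difference was -2.21 over the mRNAs and 0.01 over all genes. Rescaled to TPM, which sets each library to the same sum, the median of all genes was -0.31, and 1662 genes were called higher and 3045 lower, against 2446 and 1890 on the deposited scale. mt-Rnr1 was higher by 5.21 ± 0.20 SE (limma adjusted p = 2.5e-09) and mt-Rnr2 by 3.76 ± 0.24 (8.1e-07). The mRNA falls ranged from -3.92 ± 0.27 for mt-Nd4l (1.2e-06) to -1.24 ± 0.42 for mt-Nd3 (0.036). Next to mt-Nd4l came mt-Atp6, an ATP synthase subunit, at -3.00 ± 0.40 (2.2e-04), and mt-Co2, a complex IV subunit, at -2.74 ± 0.27 (3.1e-05). Each of these genes consists almost wholly of sequence that the nuclear genome repeats, so their levels and this order are uncertain. The difference was -1.96 ± 0.29 for mt-Co1 (4.3e-04) and -2.22 ± 0.27 for mt-Nd6 (1.2e-04). The call of mt-Nd3 was lost without any 1 of G3TM replicate 1, G3TM replicate 2, G3DM replicate 1 or G3DM replicate 2 (adjusted p = 0.091 to 0.18).

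In G5, 12 of 13 mRNAs were called lower in TM and 2 of 2 rRNAs higher, where 58.7% of all tested genes were called (30.3% higher and 28.4% lower). The median difference was -2.25 over the mRNAs and 0.02 over all genes. Rescaled to TPM, the median of all genes was -0.50, and 2425 genes were called higher and 5886 lower, against 4114 and 3848 on the deposited scale. mt-Rnr1 was higher by 4.84 ± 0.18 SE (limma adjusted p = 1.4e-09) and mt-Rnr2 by 4.22 ± 0.21 (5.1e-08). The largest falls among the mRNAs were those of mt-Nd4l at -3.79 ± 0.24 (4.2e-07) and mt-Nd5 at -3.02 ± 0.24 (2.9e-06). The level of mt-Nd4l is uncertain, since the nuclear genome repeats its sequence. The difference was -2.25 ± 0.26 for mt-Co1 (3.5e-05) and -2.58 ± 0.24 for mt-Nd6 (8.2e-06). mt-Nd3 was the exception, at -0.44 ± 0.37 (0.33). When the reads of its nuclear copy were added to those of the gene, an alternative chosen after seeing the data, mt-Nd3 was lower in TM in G5 by -1.82 ± 0.23 (6.7e-05). The other 6 genes with a copy remained lower on that scale, from -5.11 ± 0.22 for mt-Nd4l to -2.26 ± 0.26 for mt-Co1.

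**Figure D4:**
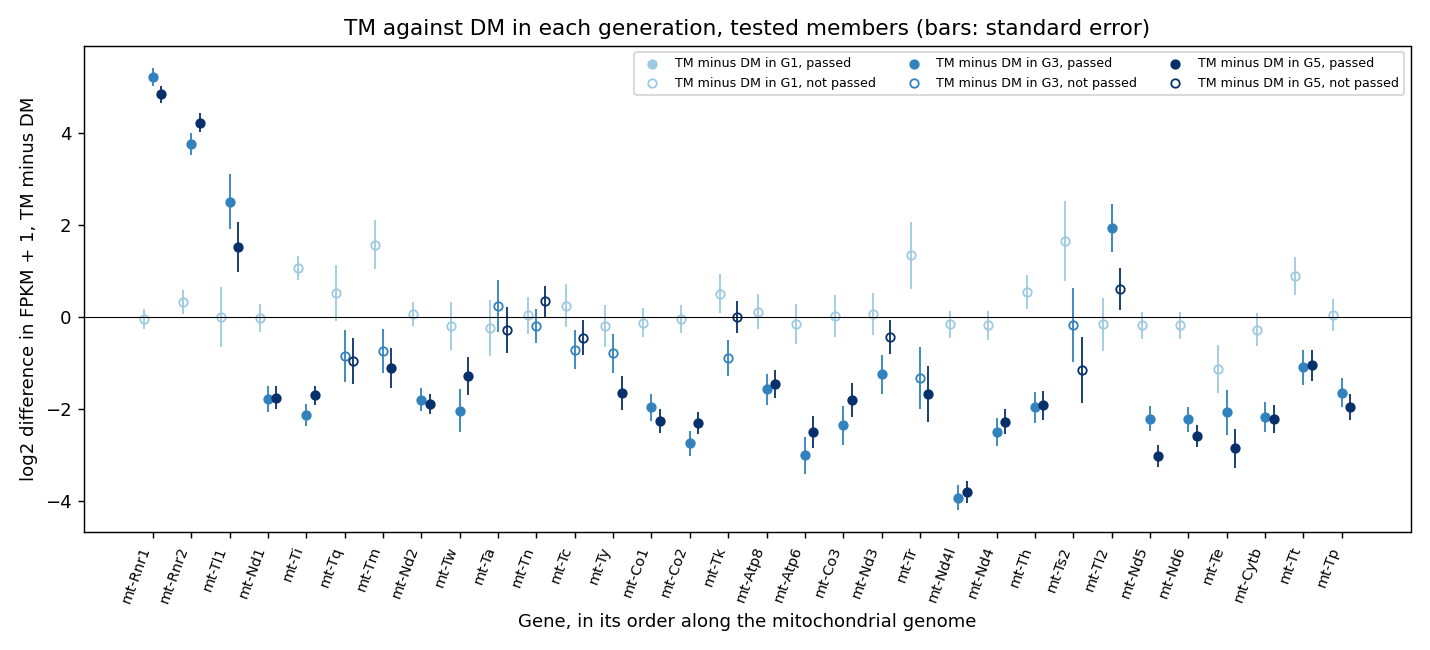
Log2 differences of FPKM + 1, TM minus DM, in G1, G3 and G5 for the 32 tested members in their order along the mitochondrial genome. Bars are SE, and filled points passed an adjusted p under 0.05. In G1 all 32 points are open, while in G3 and G5 the 2 rRNAs lie between 3.76 and 5.21 and the mRNAs between -3.92 and -0.44.

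The change of the genotype difference with generation was tested as an interaction against G1. The difference in sex between G3TM and G3DM is part of the G3 interaction. In G3, 9 of 13 mRNAs passed with an interaction below 0 and 2 of 2 rRNAs with one above 0, where 2.42% of all tested genes were called (1.53% higher and 0.885% lower). It was 5.25 ± 0.29 SE for mt-Rnr1 (limma adjusted p = 3.6e-07), 3.45 ± 0.36 for mt-Rnr2 (1.8e-04) and -3.76 ± 0.40 for mt-Nd4l (2.2e-04). It was -1.85 ± 0.43 for mt-Co1 (0.040), -2.04 ± 0.39 for mt-Nd6 (0.017) and -2.85 ± 0.59 for mt-Atp6 (0.024). Leaving out any 1 of the G1TM or G3DM libraries or G1DM replicate 1 ended the calls of these last 3 genes (adjusted p = 0.066 to 0.19). The call of mt-Atp6 was also lost without G1DM replicate 2, and that of mt-Co1 also without G1DM replicate 2, G3TM replicates 2 or 3, G5DM replicates 2 or 3, or G5TM replicates 1 or 3 (adjusted p = 0.051 to 0.10). The levels of mt-Nd4l and mt-Atp6 are uncertain, since the nuclear genome repeats their sequence.

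In G5, 12 of 13 mRNAs passed with an interaction below 0 and 2 of 2 rRNAs with one above 0, where 19.8% of all tested genes were called (11.5% higher and 8.33% lower). It was 4.89 ± 0.28 SE for mt-Rnr1 (limma adjusted p = 4.6e-07), 3.90 ± 0.34 for mt-Rnr2 (3.9e-05) and -3.63 ± 0.38 for mt-Nd4l (1.4e-04). It was -2.84 ± 0.38 for mt-Nd5 (8.6e-04), -2.13 ± 0.41 for mt-Co1 (0.0065) and -2.40 ± 0.38 for mt-Nd6 (0.0023). mt-Nd3 did not pass (-0.51 ± 0.59, 0.54). The nuclear genome repeats the sequence of mt-Nd4l and mt-Nd3, so their levels are uncertain.

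Generations were compared within each genotype next. Within TM, G3 against G1 gave 12 of 13 mRNAs lower and 2 of 2 rRNAs higher, where 46.8% of all tested genes were called (25.2% higher and 21.6% lower). mt-Rnr1 was higher by 5.11 ± 0.20 SE (limma adjusted p = 4.0e-09) and mt-Rnr2 by 4.14 ± 0.24 (3.1e-07), while mt-Co1 was at -1.72 ± 0.29 (0.0011) and mt-Nd6 at -2.39 ± 0.27 (8.2e-05). The largest falls were those of mt-Nd4l (-3.57 ± 0.27, 3.4e-06), mt-Atp6 (-2.64 ± 0.40, 5.8e-04) and mt-Co2 (-2.44 ± 0.27, 8.6e-05). The levels of these genes are uncertain, since the nuclear genome repeats their sequence. G5 against G1 gave 12 of 13 mRNAs lower and 2 of 2 rRNAs higher, where 49.5% of all tested genes were called (26.0% higher and 23.5% lower). mt-Rnr1 was higher by 5.24 ± 0.20 (3.2e-09) and mt-Rnr2 by 4.26 ± 0.24 (2.1e-07), while mt-Co1 was at -1.98 ± 0.29 (3.1e-04), mt-Nd6 at -2.23 ± 0.27 (9.7e-05), mt-Nd4l at -3.72 ± 0.27 (2.2e-06) and mt-Nd5 at -2.65 ± 0.27 (3.1e-05). mt-Nd3 was the mRNA not called in both. On the TPM scale, 1780 genes were higher and 5108 lower in G3 against G1, beside 3415 and 2935 on the deposited scale, and 1935 and 5235 in G5 against G1, beside 3527 and 3191. These comparisons share the G1TM libraries with each other and the TM libraries with those against DM. Y-linked transcripts were above 1 FPKM in 0 of 2 G1TM and 3 of 3 G3TM libraries. Sex is thus part of G3 against G1 within TM and cannot be told apart from generation there.

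G5TM against G3TM gave 0 called members with limma and 0 at an unadjusted p under 0.05, where 0.0295% of all tested genes were called (0.0221% higher and 0.00737% lower). limma voom also called 0. mt-Rnr1 differed by 0.12 ± 0.18 SE, mt-Rnr2 by 0.12 ± 0.21, mt-Co1 by -0.27 ± 0.26 and mt-Nd6 by 0.17 ± 0.24, each with an adjusted p of 1. Within DM, G5 against G1 and G5 against G3 gave 0 called members each, with 2 and 3 members at an unadjusted p under 0.05 and 0 called by limma voom. Of all tested genes, 0.0590% were called in G5 against G1 (0.00737% higher and 0.0516% lower) and 4.98% in G5 against G3 (3.35% higher and 1.64% lower). In G5 against G1 the differences were 0.35 ± 0.20 for mt-Rnr1, 0.36 ± 0.24 for mt-Rnr2, 0.15 ± 0.29 for mt-Co1 and 0.18 ± 0.27 for mt-Nd6 (adjusted p of 1 each). In G5 against G3 they were 0.49 ± 0.20 for mt-Rnr1 (adjusted p = 0.16), -0.33 ± 0.24 for mt-Rnr2 (0.43), 0.02 ± 0.29 for mt-Co1 (0.98) and 0.52 ± 0.27 for mt-Nd6 (0.27).

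In G3 against G1 within DM 1 member, mt-Ti, was called higher, where 0.214% of all tested genes were called (0.184% higher and 0.0295% lower). mt-Ti was at 3.78 and 3.00 FPKM in G3DM, against 0.618 and 0.623 FPKM in G1DM. Its difference of 1.43 ± 0.26 SE (limma adjusted p = 0.048) rests on 1 to 5 reads per library and passed in 7 of 24 alternatives. It was lost without any 1 library of G1DM, G3DM or G1TM, G3TM replicates 2 or 3, G5DM replicate 2 or G5TM replicate 1 (adjusted p = 0.053 to 0.39). The difference was -0.14 ± 0.21 for mt-Rnr1 (adjusted p = 0.71) and 0.69 ± 0.26 for mt-Rnr2 (0.16). It was 0.13 ± 0.32 for mt-Co1 (0.83) and -0.35 ± 0.29 for mt-Nd6 (0.49).

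The tRNAs were thinly sampled and unevenly so. Of the 22, 4 were listed at 0 in every library (mt-Tf, mt-Tv, mt-Td and mt-Tg), mt-Ts1 had a single read in all, and 14 had under 100 reads over the 15 libraries. The 3 leading tRNAs held 84.4% of the 15873 tRNA reads. All 3 lie on the minus strand, which carries 8 of the 22 tRNA genes. As with mt-Nd6, sense and antisense reads over the tRNA genes cannot be told apart, since any counting by strand is not stated. The 5 with most reads are shown, since the tRNA values rest mainly on them. They are from the GENCODE transcripts of GRCm38, as DNA, with the anticodon in capitals.
mt-Tp, proline (chrM:15356-15422, minus strand): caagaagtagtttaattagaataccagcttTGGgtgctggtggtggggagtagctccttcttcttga
mt-Tn, asparagine (chrM:5089-5159, minus strand): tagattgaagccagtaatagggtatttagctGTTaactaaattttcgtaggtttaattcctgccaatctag
mt-Tc, cysteine (chrM:5192-5257, minus strand): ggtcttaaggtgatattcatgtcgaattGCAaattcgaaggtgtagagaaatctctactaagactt
mt-Th, histidine (chrM:11546-11612, plus strand): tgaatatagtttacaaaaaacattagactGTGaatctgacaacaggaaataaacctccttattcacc
mt-Tw, tryptophan (chrM:4950-5016, plus strand): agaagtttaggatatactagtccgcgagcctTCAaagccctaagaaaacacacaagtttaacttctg

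mt-Tp is the last tRNA of the map. It was at 444 and 498 FPKM in G1TM, against 465 and 447 FPKM in G1DM. In G3TM it was at 144, 116 and 161 FPKM, against 437 and 436 FPKM in G3DM. In G5TM it was at 142, 129.9 and 161 FPKM, against 917, 541 and 358 FPKM in G5DM. The TM and DM libraries did not overlap in G3 or G5, and G5DM spread widely. The difference was -1.64 ± 0.32 SE in G3 (limma adjusted p = 0.0023) and -1.96 ± 0.28 in G5 (1.5e-04).

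mt-Tn and mt-Tc, which lie close together on the same strand, did not follow mt-Tp. mt-Tn was at 111, 113 and 159 FPKM in G3TM, against 149.8 and 138 FPKM in G3DM. It was at 159.6, 241 and 150.1 FPKM in G5TM, against 258, 120.3 and 91.5 FPKM in G5DM. The groups overlapped in both generations, and neither difference passed (-0.19 ± 0.37 SE and 0.34 ± 0.33, limma adjusted p = 0.74 and 0.39). mt-Tc was at 63.4, 154 and 104 FPKM in G3TM, against 159 and 172 FPKM in G3DM, and did not pass in G3 or G5 (-0.71 ± 0.42 and -0.45 ± 0.38, adjusted p = 0.22 and 0.32). Set against the mRNA, the level of mt-Tn was 6.58% to 20.5% of that of mt-Co1 in the 6 libraries of G3TM and G5TM and 1.79% to 5.24% in the other 9.

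mt-Th, cut from the plus-strand precursor just after mt-Nd4, was at 34.0, 17.2 and 13.8 FPKM in G3TM, against 111 and 59.5 FPKM in G3DM. It was at 23.8, 26.3 and 16.9 FPKM in G5TM, against 76.1, 84.1 and 98.5 FPKM in G5DM. mt-Tw, which follows mt-Nd2, was at 4.54, 15.2 and 2.95 FPKM in G3TM, against 27.2 and 28.6 FPKM in G3DM. Both tRNAs lay lower in all TM libraries of G3 and G5 than in any other library. mt-Th differed by -1.96 ± 0.34 SE in G3 and -1.92 ± 0.31 in G5 (limma adjusted p = 0.0013 and 2.8e-04). mt-Tw differed by -2.03 ± 0.47 and -1.28 ± 0.42 (0.0065 and 0.020), and its call was lost in G3 without G3DM replicate 2 and in G5 without G5DM replicate 2, G5TM replicate 1 or G5TM replicate 3 (adjusted p = 0.058 to 0.085).

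Of the 17 tested tRNAs, 6 reached the filter of 1 FPKM in at least 2 libraries only outside G3TM and G5TM (mt-Ti, mt-Tk, mt-Tm, mt-Tq, mt-Tr and mt-Tt) and 1, mt-Tl1, only within them. Passing on one side favoured a difference between these sets of libraries, so their tests give no support and are left out of the counts that follow. Of the other 10 tRNAs, 4 were called lower and 1 higher in TM in G3, where 13.9% of all tested genes were called lower and 18.0% higher. In G5, 5 were called lower and 0 higher, where 28.4% of all tested genes were called lower and 30.3% higher. mt-Te (glutamate), mt-Th, mt-Tp and mt-Tw were called lower in both generations. mt-Te differed by -2.85 ± 0.43 SE in G5 (limma adjusted p = 1.9e-04), at 0.888, 2.40 and 1.73 FPKM in G5TM, against 17.7, 24.1 and 13.1 FPKM in G5DM. Within TM, 4 of the 10 were called lower and 1 higher in G3 against G1, where 21.6% of all tested genes were called lower and 25.2% higher. In G5 against G1 the counts were likewise 4 and 1, beside 23.5% lower and 26.0% higher. There mt-Tn was the one called higher (0.97 ± 0.37, limma adjusted p = 0.043, in 10 of 24 alternatives). The interaction passed below 0 for 1 of the 10 in G3 (mt-Th) and for 2 in G5 (mt-Th and mt-Tp). Of all tested genes, 0.885% and 8.33% did so.

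Both leucine tRNAs had high values in later TM libraries. mt-Tl1 follows directly on mt-Rnr2, and it was at 3.04, 5.43 and 6.14 FPKM in G3TM and at 1.63, 0 and 7.94 FPKM in G5TM. It was listed at 0 in all 9 other libraries. It had 31 reads in all, at most 10 in a library, and its values are given as a description. mt-Tl2, the other leucine tRNA, was at 26.2, 6.70 and 14.8 FPKM in G3TM, against 5.14 and 1.46 FPKM in G3DM. Its call in G3 (1.94 ± 0.52, 0.013) was lost without G3DM replicate 2 (1.28, 0.19), and in G5 it did not pass (0.61 ± 0.46, 0.27).

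**Figure D5:**
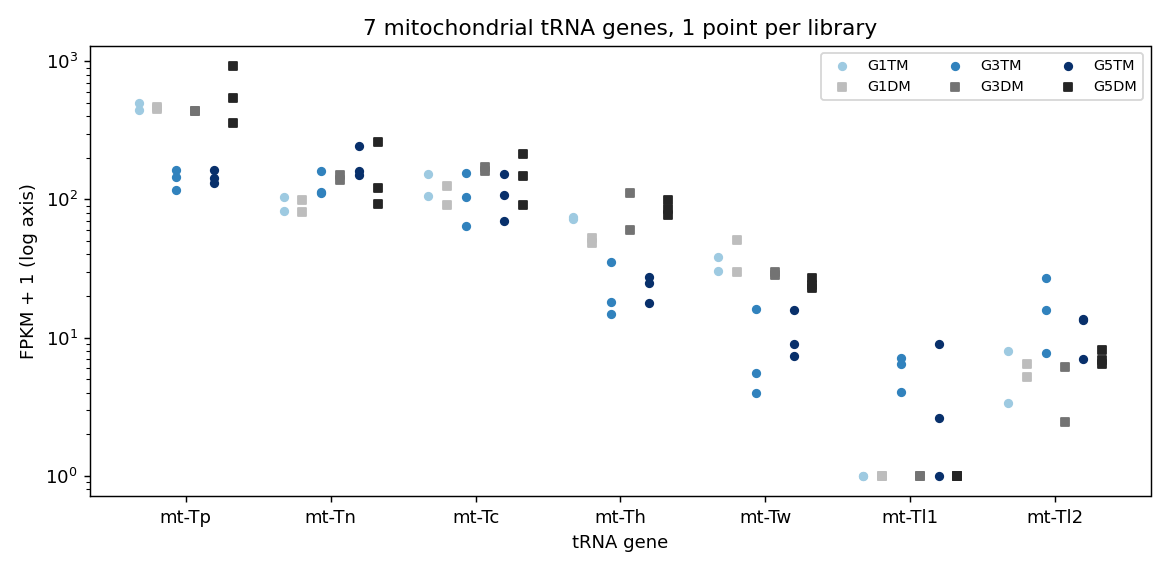
FPKM + 1 on a log axis of the 5 tRNAs with most reads and of mt-Tl1 and mt-Tl2, 1 point per library. mt-Tp lies at 116 to 161 FPKM in G3TM and G5TM and at 358 to 917 FPKM elsewhere, mt-Tn overlaps between TM and DM within each generation, and mt-Tl1 is listed at 0 in the 9 libraries outside G3TM and G5TM.

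Taking all libraries at once, 11 of 13 mRNAs and 4 of those 10 tRNAs were lower in all 6 libraries of G3TM and G5TM than in any of the other 9, where 9.63% of all tested genes were. The 2 mRNAs that overlapped were mt-Atp8 and mt-Nd3. Both rRNAs were higher in all 6 than in any of the 9, where 17.1% of all tested genes were. Since these 6 are all of the TM libraries of the later generations, whatever else sets those libraries apart cannot be told apart from genotype and generation.

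As a description over the 15 libraries, mt-Nd1 and mt-Nd2 had Pearson correlations of 0.99 and 0.97 with mt-Co1 in log2(FPKM + 1), mt-Rnr1 and mt-Rnr2 -0.96 and -0.97, and mt-Tn -0.34. These points share libraries, depth and the division into 6 and 9. Among 7168 nuclear genes with a mean of at least 5 FPKM the patterns most like that of mt-Co1 were those of Gm10222 (0.988), Brox (0.985), Golph3 (0.982), Smap1 (0.982) and Ssh1 (0.981). Gm10222 is the nuclear copy of mt-Nd4l described above.

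Nuclear-encoded subunits of the same complexes were called higher in TM or did not pass, and none was called lower. The counts in this and the next paragraphs stand beside 18.0% of all tested genes called higher and 13.9% lower in G3, and 30.3% higher and 28.4% lower in G5. Of 36 nuclear-encoded complex I subunits, 23 were called higher in TM in G3 and 31 in G5, and 0 lower, with median differences of 1.26 and 1.65. Ndufa3, a small accessory subunit, was at 64.4 to 119 FPKM in the 6 libraries of G3TM and G5TM and at 6.24 to 13.1 FPKM in the other 9 (2.82 ± 0.24 SE in G3 and 3.15 ± 0.21 in G5, limma adjusted p = 8.3e-06 and 7.5e-07). Their summed level was 1622 to 2819 FPKM in the 6 and 491 to 1067 FPKM in the 9. The complex III list had 4 of 9 higher in G3 and 7 of 9 in G5, and the complex IV list 6 and 7 of 10, in each case with 0 lower. Uqcrq of complex III differed by 2.42 ± 0.38 in G3 (6.1e-04) and Cox7c of complex IV by 1.91 ± 0.33 (0.0011). Of 15 ATP synthase subunits, 7 were higher in G3 and 13 in G5, led by Atp5k at 3.35 ± 0.38 in G3 (8.8e-05). In G1, 0 genes of these 4 lists were called.

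The lists of genes that act on mitochondrial DNA and RNA had calls in both directions, several of them at shares near those of all genes. Of all tested genes, 18.0% were called higher and 13.9% lower in G3, and 30.3% higher and 28.4% lower in G5. Of 20 tested genes for mitochondrial transcription, replication and the nucleoid, 5 were called higher and 0 lower in G3, and 9 higher and 3 lower in G5. Lonp1, the matrix protease that degrades the packaging factor of mitochondrial DNA, differed by 1.27 ± 0.31 SE in G3 (limma adjusted p = 0.0076). Mterf2, a member of the mitochondrial transcription termination factor family, was among those called lower in G5 (-1.25 ± 0.29, limma adjusted p = 0.0029). It was at 0.310 to 0.815 FPKM in the 6 libraries of G3TM and G5TM and at 0.857 to 4.32 FPKM in the other 9. It thus reached the filter of 1 FPKM only outside the 6, and its test gives no support. Of 31 tested genes for mitochondrial RNA processing, polyadenylation and decay, 8 were higher and 1 lower in G3, and 12 higher and 7 lower in G5. Rcc1l, a factor of mitoribosome assembly, differed by 1.57 ± 0.33 and 1.90 ± 0.30 (0.0039 and 2.5e-04), and Hsd17b10, a subunit of mitochondrial RNase P, by 1.48 ± 0.26 in G5 (5.6e-04). Of 7 tested regulators of mitochondrial biogenesis, 1 was higher and 1 lower in G3, and 2 higher and 2 lower in G5. Esrra was higher in G5 by 1.01 ± 0.28 (0.0075) and Gabpa, a subunit of nuclear respiratory factor 2, lower by -1.40 ± 0.30 (0.0017).

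Values that moved with the same libraries are given here, and their part in the results was not tested. Rn7sk, the only tested gene of 10 nuclear-encoded small RNAs that lack a polyA tail, was at 0 to 10.5 FPKM in G3TM and G5TM and at 11.0 to 65.3 FPKM in the other 9 libraries. It was called lower in TM in G3 (-2.78 ± 0.85 SE) and in G5 (-3.38 ± 0.76, limma adjusted p = 0.024 and 0.0024). The marker counts that follow stand beside 18.0% of all tested genes called higher and 13.9% lower in G3, and 30.3% and 28.4% in G5. Of 10 fibroblast markers, 3 were lower in TM in G3 and 5 in G5. Their sum was 3079 to 4582 FPKM in the 6 libraries and 3783 to 6219 FPKM in the 9, so fibroblast markers were expressed in every library. A sum over bulk RNA does not settle which cells expressed them. The sum of 5 neural markers was 102 to 296 FPKM in the 6 and 40.9 to 103 FPKM in the 9, and 2 of 4 tested were higher in TM in both generations. The sum of 5 epithelial markers was 38.9 to 117 FPKM in the 6 and 9.87 to 74.7 FPKM in the 9, with 3 of 3 tested higher in G5 and 0 in G3. That of 10 skeletal muscle markers was 36.6 to 404 FPKM in the 6 and 38.5 to 342 FPKM in the 9, with 4 of 8 tested higher and 1 lower in G3 and 1 lower in G5. That of 8 macrophage markers was 5.42 to 370.2 FPKM in the 6 and 6.95 to 78.0 FPKM in the 9, with 1 of 7 tested higher in G3 and 0 in G5. The 5 endothelial markers summed to 0.702 to 1.72 FPKM in the 6 and 1.03 to 4.67 FPKM in the 9, with 2 of 2 tested lower in G3 and 1 in G5. The 5 erythroid markers, of which 0 were tested, summed to at most 0.136 FPKM in the 6 and 0.490 FPKM in the 9, with Hbb-bs listed at 0 throughout.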

How the data were processed

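The authors deposited 1 table of FPKM for 15 libraries, with gene coordinates, lengths and biotypes. Per the submitters' processing notes, which give no roles, the tools included HISAT2 2.0.5, featureCounts 1.5.0-p3 and fastp. Per the labels' protocols, TRIzol served for RNA extraction and a NEBNext Ultra RNA kit for library preparation. The genome build and any use of strand are not given in the sources used here. Coordinates equalled GENCODE vM21 (GRCm38) for 98.3% of genes and for 37 of 37 members. Recovered reads were FPKM times length divided by the step of 1 read (100% of values whole within 0.05).

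limma 3.58.1 (R 4.3.3) was fitted to log2(FPKM + 1) with 6 group means and an intensity trend, two-sided, with Benjamini-Hochberg adjustment over 13562 genes. The model was tested on simulated data. Python 3.11.15 with pandas 2.3.3 and numpy 2.4.6 handled tables, and matplotlib 3.10.9 the plots. The members and gene lists were chosen with earlier results of these data known. Tests are printed for mt-Rnr1, mt-Rnr2, mt-Co1 and mt-Nd6 in every comparison and for the 3 largest rises and falls among called members, leaving out tRNAs that passed the filter on one side only, and for up to 3 genes of each list. A few other members are given beyond that rule, chosen after their values were seen. Alternatives were other pseudocounts, filters, scalings and fits, and each library left out.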

Additional observations from a re-analysis of the deposited data

Results flagged for a closer look

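The difference between TM and DM itself differed between generations for several members, by the interaction test of the limma model against G1. In G3 the interaction was 5.25 for mt-Rnr1, 3.45 for mt-Rnr2, -3.76 for mt-Nd4l, -3.20 for mt-Ti, -2.85 for mt-Atp6, -2.04 for mt-Nd6 and -1.85 for mt-Co1, as log2 differences of FPKM + 1. In G5 it was 4.89 for mt-Rnr1, 3.90 for mt-Rnr2, -3.63 for mt-Nd4l, -3.01 for mt-Tr, -2.84 for mt-Nd5, -2.40 for mt-Nd6 and -2.13 for mt-Co1. mt-Tr, the arginine tRNA, had 33 reads over all 15 libraries and mt-Ti, the isoleucine tRNA, at most 5 in any. Both passed the filter on level only outside G3TM and G5TM, so their tests give no support. Groups of 2 or 3 libraries were too small for a test of single outlying libraries.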

How the results depend on the processing

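In TM against DM, 16 of the 23 members called in G3 and 19 of the 24 called in G5 were called under every alternative in which they were tested, among them both rRNAs and mt-Co1, mt-Nd6 and mt-Nd4l. The main model tested 32 members and called 32.0% of all tested genes in G3 and 58.7% in G5. Over all alternatives the rRNA differences ran from 3.40 to 6.62 in G3 and from 4.00 to 5.64 in G5. Rescaling to TPM put the median of all genes in TM against DM at -0.31 in G3 and -0.50 in G5. edgeR and DESeq2 on recovered reads were planned and not run. limma voom on those reads was added after seeing the data, as was adding the reads of the nuclear copies. Replicate numbers were not treated as pairs in the main model. Of 33 same-numbered pairs, 9 had correlated deviations over 0.1 (range -0.54 to 0.38). Pairs between groups of 2 libraries repeat the same value, so this check cannot decide whether libraries were paired. The counts of members given here include the 7 tRNAs that passed the filter in only 1 set of libraries. With the replicate block 6 members instead of 11 were called with a G3 interaction below 0, 2 instead of 4 were higher in G5 against G1 within TM, and 0 instead of 1 (mt-Ti) were higher in G3 against G1 within DM.

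With no filter on level the members called below 0 were 3 for the G3 interaction and 9 for the G5 interaction, and 2 were higher in G5 against G1 within TM. The filter at 5 FPKM left mt-Ti untested, so that 0 members were called in G3 against G1 within DM. There were also 0 calls with TPM, with no filter, with pseudocount 0.1, with either smaller set of groups and with voom. Quantile normalization called 1 member higher in TM in G1, and pseudocount 0.1 called 1 higher in G5 against G3 within DM. Leaving out each library in turn gave 3 to 15 members called below 0 for the G3 interaction and 10 to 20 for G5. The G3 count was 3 without G1DM replicate 1, without either G1TM library or without G3DM replicate 1, and 5 without G3DM replicate 2. The G5 count was 10 without either G1TM library. mt-Co1 in the G3 interaction passed in 7 of 24 alternatives (adjusted p 0.011 to 0.41) and mt-Nd6 and mt-Atp6 in 17 each. Members higher in TM numbered 0 to 1 in G1, 2 to 4 in G3 (2 without G3DM replicate 2) and 2 to 4 in G5. Within DM, 0 to 1 were higher in each comparison of generations and 0 to 1 lower in G5 against G3. Within TM, 2 to 3 were higher in G5 against G1. The cause of these changes was not tested.

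Reversed differences were small and never passed. mt-Rnr1 in TM against DM in G1 was 0.06 with quantile normalization and -0.14 to 0.06 with each library left out, and in G3 against G1 within DM it was 0.03 with quantile normalization. mt-Co1 was -0.11 with TPM in G3 against G1 within DM, and -0.04 to 0.07 with each library left out in G5 against G3 within DM. In G5 against G3 within TM the same gave -0.06 to 0.30 for mt-Rnr1, -0.04 to 0.27 for mt-Rnr2 and -0.03 to 0.37 for mt-Nd6.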
